A study of Mus musculus with 8 samples.

Results

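Mouse embryonic fibroblasts without the gene Keap1 (Keap1-/-, here Keap1 null) were compared with wild-type (WT) fibroblasts while both grew in culture dishes, free of any host tissue. The comparison rests on 2 Keap1 null and 2 WT arrays, chosen by their titles, which are 4 of the 8 arrays of the series. The other 4 arrays hold tumours that the same cells formed in nude mice, and they enter here only to share one estimate of spread and in a short comparison near the end. Total RNA was amplified and labelled, and each array was hybridised with 1 colour (Cy3). Both kinds of cell carry the letters TR in their names, which the labels do not spell out. The labels name 1 kind of cell per genotype and give neither strain nor passage, so a difference between the genotypes and a difference between these lines of cells cannot be told apart. Whether the 2 replicates of a genotype were separate cultures is not stated, so the p-values measure the spread between these arrays, which may be technical.

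KEAP1 is the adaptor that brings the transcription factor NRF2 (gene Nfe2l2) to a ubiquitin ligase, so that NRF2 is degraded in unstressed cells. Electrophiles and oxidants modify KEAP1, NRF2 then builds up, pairs with small MAF proteins and binds the antioxidant response element near genes for glutathione synthesis, conjugation of toxins, quinone reduction and NADPH supply. In fibroblasts this pathway is known for setting resistance to oxidants and toxic metals.

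Values are log2 of the background-subtracted intensity minus the 75th percentile of the array, so a value of 0 lies at that percentile. A difference is the mean of the Keap1 null arrays minus the mean of the WT arrays on that scale, given with its standard error (SE), and a fold is that difference as a ratio. A gene was called higher or lower at a limma p-value below 0.05 after Benjamini-Hochberg adjustment over all 19374 targets tested. Between 60.9% and 65.0% of spots on the 4 dish arrays were well above background, and no spot was saturated. Arrays of the same genotype correlated at 0.995 or 0.996 over the tested targets, and arrays of different genotypes at 0.971 to 0.974. In a principal component analysis of the 4 arrays, 84.9% of variance lay along an axis that parts the genotypes and 12.3% along one that parts the slides of replicate 1 and replicate 2.

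Keap1 itself was read first. It measured 2.37 and 2.22 on the Keap1 null arrays and 3.32 and 2.99 on the WT arrays, so the groups did not overlap. The difference was -0.86 ± 0.17 SE, 1.81-fold lower in the null cells (limma adjusted p = 0.0138), and the signal stayed well above background on all 4 arrays. Where its single probe lies relative to the deletion is unknown here, and outside the deletion it would not check the labels. The call was lost without scaling (adjusted p = 0.0528) and without Keap1 null array 1 (0.0567), Keap1 null array 2 (0.0862) or WT array 1 (0.0708). Nfe2l2 measured 3.64 and 3.52 in Keap1 null and 3.44 and 3.59 in WT cells, a difference of 0.07 ± 0.10 SE (adjusted p = 0.699).

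The label fibroblast was checked against 15 fibroblast genes, all of which passed the filter on dim probes. Vimentin (Vim), the intermediate filament of mesenchymal cells, measured 7.42 and 7.55 in Keap1 null and 7.71 and 7.64 in WT cells. The collagen gene Col1a2 measured 4.14 and 3.90 against 3.89 and 3.63. Neither differed by the test (adjusted p = 0.251 and 0.261). Of the 15 genes, 8 were higher in Keap1 null cells and 1, Col1a1, was lower (2 with the block), with a median difference of 0.81, against -0.05 over all targets. The median level of the 15 genes was 2.71 to 2.89 on the 4 arrays.

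Across all targets, 5237 of 19374 (27.0%) were called, 2687 (13.9%) higher and 2550 (13.2%) lower in Keap1 null cells. Large differences leaned upward: 1265 targets rose by 2-fold or more and 484 fell by as much, 256 against 28 passed 8-fold, and 114 against 12 passed 16-fold. These are fitted folds, and with targets below background in 1 line set at their bound, 169 against 17 passed 8-fold and 67 against 9 passed 16-fold. Among targets well above background on all 4 arrays, 100 against 12 passed 8-fold. Called and changed by at least 2-fold were 9.03% of targets. All 5237 calls had the same sign on both slides, which follows largely from the calling, since the same 4 arrays gave both. Of all targets, 64.4% had groups that did not overlap. The split of calls depends on the scaling. With the median of each array in place of the 75th percentile, 1851 were higher and 3507 lower, and without scaling 2095 were higher and 705 lower, since these settings place the median of all targets at -0.20 and 0.08 rather than -0.05. Leaving out an array shrank the count to 2668 without Keap1 null array 1, 2620 without Keap1 null array 2 and 3173 without WT array 1 (3601 without WT array 2). Counts for gene lists shrank with it. Where a list's count moved by more than 1.5 times, its range over those 4 omissions, or the word fewer, follows in brackets. With the slide as a block 7159 targets were called, and a list's count with the block is given where it moved as much.

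**Figure D1:**
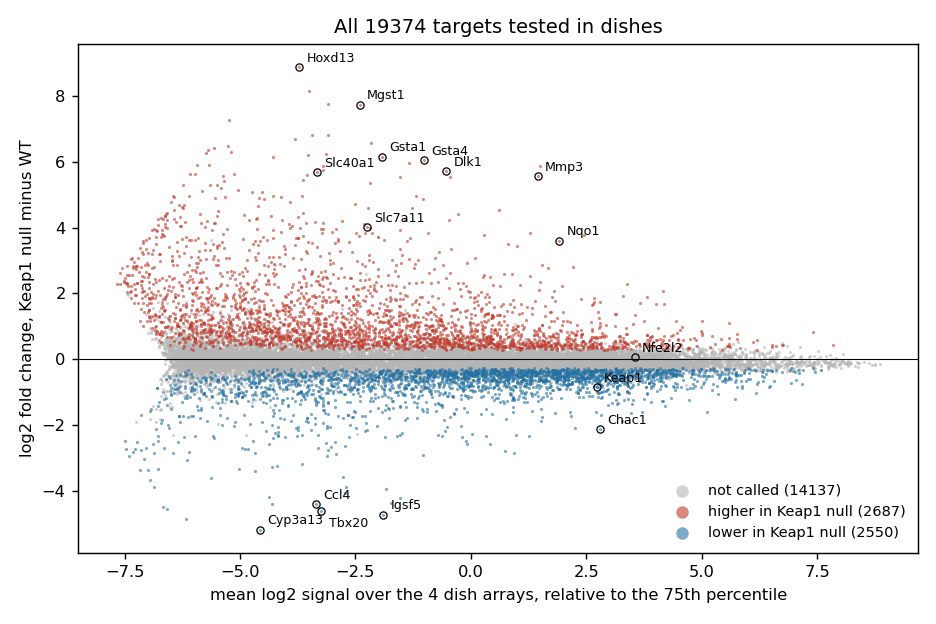
Each point is 1 of 19374 targets, with its mean log2 signal over the 4 dish arrays (relative to the array's 75th percentile) on the horizontal axis and the log2 difference of Keap1 null minus WT on the vertical axis; red points were called higher (2687), blue points lower (2550) and grey points not called. Points above 4 on the vertical axis, such as Mgst1, Gsta1, Gsta4 and Dlk1, far outnumber those below -4. Keap1 lies at -0.86 and Nfe2l2 at 0.07.

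The 12 largest rises among genes well above background on all 4 arrays are given first. Mgst1, a membrane-bound glutathione transferase, measured 1.55 and 1.37 in Keap1 null and -6.23 and -6.33 in WT cells, 214-fold higher (7.74 ± 0.11 SE, adjusted p = 8.54e-06). Xlr4b, from an X-linked family of near-identical genes whose probes may not separate its members, measured 1.15 and 1.10 against -5.47 and -5.45 (96.2-fold). Next in order of size stood Gsta1 (71.9-fold), Gsta4 (66.8-fold), Fam181b (63.2-fold), Dlk1 (52.7-fold), Mmp3 (47.5-fold), Nnat (46.8-fold), Mfap2 (46.7-fold), Mgp (41.3-fold), Aox1 (31.2-fold) and Meg3 (31.0-fold). These 12 genes were taken by size from called genes whose groups did not overlap, so the distance between their genotypes follows from the choice. The WT levels of Mgst1 and Aox1 lay near background, so the size of their folds is less certain. Gsta2, at -6.50 and -6.53 in WT cells, counted as above background on only 1 WT array.

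Some genes were well above background only in Keap1 null cells, so that the fold is a lower bound, computed against the weakest signal that still counts as above background. Fndc3c1 was at least 173-fold higher, Hoxd13, a homeobox factor of the limb and posterior trunk, at least 167-fold, and Amph, which encodes amphiphysin, at least 151-fold. The others among the 8 largest bounds were Xlr3c (at least 72.9-fold), Tmem35a (70.1-fold), Hunk (43.7-fold), Asb4 (33.6-fold) and Kcnmb4 (25-fold). In all, 473 targets were well above background on both Keap1 null arrays and on neither WT array, and 117 the other way round.

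The largest falls were smaller. Igsf5, a tight junction adhesion protein, measured -4.19 and -4.35 in Keap1 null and 0.52 and 0.43 in WT cells, 26.8-fold lower (-4.74 ± 0.23 SE, adjusted p = 6.4e-05). Tbx20, a heart transcription factor, measured -5.80 and -5.29 against -1.03 and -0.82 (24.6-fold lower). The chemokine gene Ccl4 was 21.4-fold lower, Erfe, the hormone erythroferrone, 20.9-fold, Nppb, a natriuretic peptide, 18.9-fold, Crct1 16.8-fold, Cldn3 15.6-fold, Sorbs2 14.8-fold and Anxa10 12-fold. Calhm5, S100a7a and Cntnap4 followed at 9.79-fold, 9.48-fold and 9.09-fold lower. Cyp3a13, a cytochrome P450, was not well above background on the Keap1 null arrays and was at least 27.0-fold lower. For Irf8, a factor of myeloid cells, Btn1a1 and Clec5a the bounds were 7.47-fold, 5.36-fold and 4.91-fold, and for Cst8, Cgn, Cst9 and Gabra2 they lay between 3.20-fold and 4.30-fold.

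The regulators around KEAP1 were read as a list of 15 tested genes. Of these, 5 fell (3 or 4) and 1 rose (0 or 1), to be read against the 27.0% of all targets called. Maff and Mafk encode small MAF partners of NRF2. Maff measured 2.45 and 2.49 in Keap1 null and 3.38 and 3.68 in WT cells (2.08-fold lower, adjusted p = 0.00152), and Mafk -0.85 and -0.86 against 0.02 and 0.05 (1.85-fold lower). Gsk3b, a kinase that marks NRF2 for another ubiquitin ligase, was 1.80-fold lower. The transcripts of Cul3, the cullin that KEAP1 binds, and of Bach1, a repressor at antioxidant response elements, were not called.

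Glutathione transferases, which join glutathione to electrophiles, rose in most members. Of 23 tested members, 14 rose and 3 fell, with a median difference of 0.71 (0.67 on slide 1 and 0.78 on slide 2). The alpha class led. Gsta4, which handles the lipid aldehyde hydroxynonenal, measured 1.99 and 2.03 against -4.08 and -4.03, and Gsta1 1.19 and 1.11 against -4.95 and -5.09. Gsta2 measured 0.37 and 0.26 against -6.50 and -6.53, with 1 WT array well above background. Gsta1 and Gsta2 are near-identical, so each probe may also read the other transcript. The mu class rose less. Gstm1 measured 5.04 and 5.01 against 3.36 and 3.32 (3.21-fold higher), Gstm3 rose 3.36-fold and Gstm2 2.29-fold. The pi class gene Gstp1 fell 1.68-fold, a call lost without scaling (adjusted p = 0.0684), and Gstt2 fell 2.94-fold. Gstm1 to Gstm3, Gstp1 and Gstt2 were picked after their values were seen.

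The promoters of rising detoxification genes were searched for the core of the antioxidant response element, TGACNNNGC on either strand, in the 250 bases before the gene start in the RefSeq promoter table (build GRCm38.p6). A promoter was found for 57 of 73 rising members of the detoxification lists, and 7 of the 57 (12.3%) held a match, against 11.5% of 27025 genes. The share was thus close to that of genes at large, in a window this short. The matches of 4 genes described here are shown with 15 bases on either side, the match in capitals:
Mgst1, chr6:138140456-138140494, plus strand: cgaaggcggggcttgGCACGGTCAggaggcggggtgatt
Gclm, chr3:122245408-122245446, plus strand: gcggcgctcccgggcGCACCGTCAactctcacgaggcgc
Txnrd1, chr10:82859099-82859137, plus strand: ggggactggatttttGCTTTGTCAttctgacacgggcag
Abcc4, chr14:118676932-118676969, minus strand: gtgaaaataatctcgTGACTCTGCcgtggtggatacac
Abcc4, chr14:118706221-118706259, minus strand: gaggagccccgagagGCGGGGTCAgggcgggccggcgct
Abcc4 has matches in 2 of its listed promoters, the first on the gene's own strand. The others carry the core on the strand opposite to the gene, so the capitals read as its reverse complement. A match is a description of letters, not of a bound site.

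Cystine import and glutathione synthesis gave both directions. Slc7a11, the light chain of the cystine importer, measured -0.30 and -0.17 in Keap1 null and -4.29 and -4.22 in WT cells, 16.2-fold higher (4.02 ± 0.15 SE, adjusted p = 3.02e-05). Gclc and Gclm, the 2 subunits of the enzyme that limits glutathione synthesis, rose 2.05-fold and 1.96-fold, and the groups did not overlap for either. Anpep, a peptidase that can split products of glutathione breakdown, rose 3.80-fold. Of 13 tested members, 5 rose and 4 fell (1 to 4). Chac1, which degrades glutathione, fell 4.37-fold from 3.89 and 3.81 in WT to 1.75 and 1.69 in Keap1 null cells.

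Thioredoxin and superoxide genes went both ways around a median of 0.05: of 24 tested, 6 rose and 3 fell (fewer with an array left out, and 5 with the block). The 37.5% called lay above the 27.0% of all targets, and the sign of the median turned with the scaling. Catalase (Cat) rose 2.06-fold and Srxn1, which repairs oxidised peroxiredoxins, 1.82-fold. Txnrd1, the cytosolic thioredoxin reductase, measured 6.11 and 6.02 against 5.54 and 5.397 (1.52-fold higher). Its call was lost with the median scaling (adjusted p = 0.085) and without Keap1 null array 1 (0.0749), Keap1 null array 2 (0.0504) or WT array 2 (0.054). Txnrd2, the mitochondrial reductase, fell 1.77-fold. Thioredoxin itself (Txn1) differed by 0.03 ± 0.12 SE. Of 6 glutathione peroxidases tested, 2 rose (0 to 2) and none fell (2 with the block), and which direction held the majority turned with the scaling.

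Quinone and epoxide detoxification rose in 10 of 17 tested members and fell in 2 (0 to 2), with a median of 0.59. Nqo1, the quinone reductase most often read as a measure of NRF2 activity, was 3.67 and 3.76 in Keap1 null cells and 0.11 on both WT arrays, 12.2-fold higher (3.60 ± 0.09 SE, adjusted p = 1.04e-05). The carbonyl reductase Cbr3 measured 4.34 and 4.33 against 0.61 and 0.48 (13.8-fold higher). Aox1, an aldehyde oxidase, measured -1.11 and -1.26 against -6.22 and -6.08, and Nat8l, an N-acetyltransferase kept in this list, rose 8.23-fold. The epoxide hydrolase Ephx1, picked after its values were seen, rose 2.04-fold. The genotypes did not overlap in any of these genes, as in 64.4% of all targets. These genes were named for large changes or after their values were seen, so this follows largely from the choice.

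**Figure D2:**
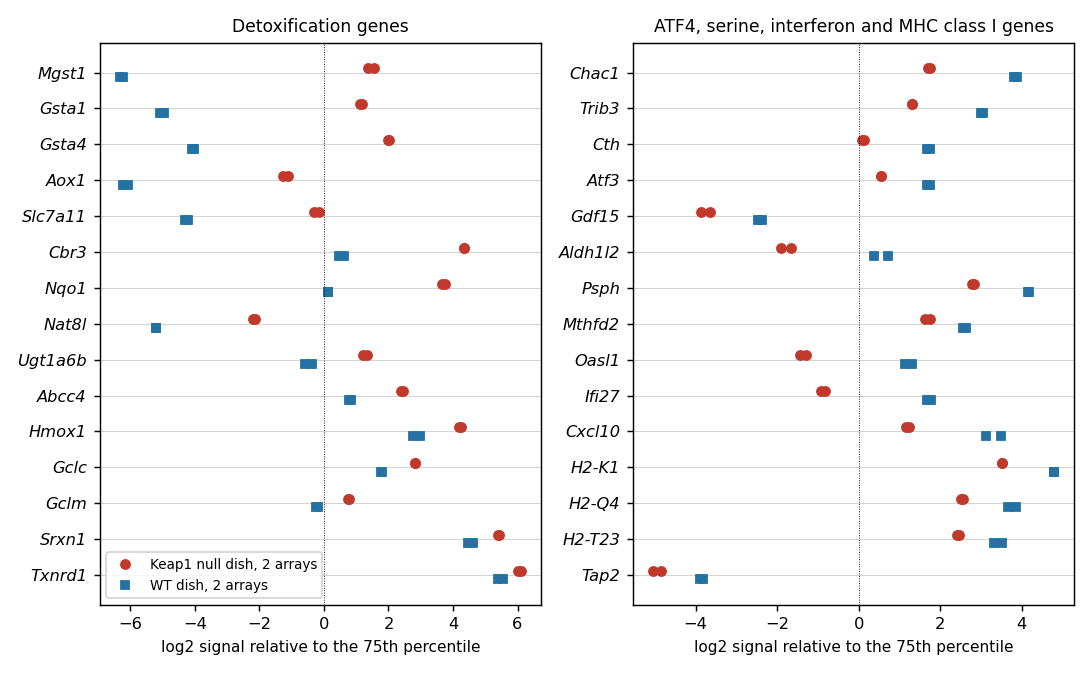
Log2 signal relative to the array's 75th percentile for 15 genes of the detoxification lists (left) and 15 genes of the ATF4, serine, interferon and MHC class I lists (right), with 2 Keap1 null arrays as red circles and 2 WT arrays as blue squares. On the left every red pair lies right of the blue pair, from Mgst1 (7.74 apart) to Txnrd1 (0.60 apart), and on the right every red pair lies left of it. Only rising genes were drawn on the left and only falling genes on the right, so these directions follow from the choice of genes. Members that went the other way, such as Gstp1 and Gstt2 for the left and Gbp2 for the right, are not drawn.

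Aldehyde dehydrogenases and aldo-keto reductases rose in 12 of 27 tested members (8 or 9) and fell in 3, with a median of 0.30. Aldh3a1, which oxidises aromatic aldehydes, was at least 6.60-fold higher, being not well above background in WT cells. Aldh1a3, which makes retinoic acid, rose 6.38-fold and Akr1c12 2.69-fold. The folate enzymes Aldh1l2 and Aldh1l1 fell 5.03-fold and 2.27-fold. Of 36 tested cytochrome P450 genes, 9 rose and 1 fell, and 39 others on the array were not above background. The 27.8% of P450 genes called was near the 27.0% of all targets, and the sign of their median turned with the scaling. None of the 4 carboxylesterases tested was called by limma (0 had an unadjusted p below 0.05), and 11 others were not above background. Glucuronosyl and sulfotransferases counted 2 rises and 2 falls among 9 tested (1 or 2 each, and 4 falls with the block). Ugt1a6b rose 3.35-fold (1.20 and 1.33 against -0.59 and -0.36).

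ABC transporters, which export conjugates, rose in 10 of 33 (6 or 7) and fell in 5 (1 or 2). Abcc4, a pump for glutathione conjugates and cyclic nucleotides, measured 2.40 and 2.44 against 0.77 and 0.85, 3.04-fold higher (adjusted p = 0.000176). Abca8b rose 2.94-fold and Abcc3 2.17-fold. Genes of the aryl hydrocarbon receptor, a sensor of planar toxins, rose in 4 of 7 tested with none falling, and their median was 0.82. The receptor Ahr rose 1.77-fold, its repressor Ahrr 3.39-fold and its target Cyp1b1 3.23-fold.

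Heme breakdown and iron handling showed 11 rises and 4 falls among 26 (3 to 7 and 1 or 2, and 7 falls with the block), and the majority turned with the scaling. Slc40a1, the iron exporter ferroportin, measured -0.52 and -0.46 in Keap1 null and -6.36 and -5.998 in WT cells, 51.6-fold higher, with 1 WT array well above background. Hmox1, the heme oxygenase induced by NRF2, measured 4.26 and 4.18 against 2.97 and 2.77 (2.55-fold higher, adjusted p = 0.000506). The ferritin chains Fth1 and Ftl1, picked after their values were seen, were 1.35-fold and 1.34-fold higher. Both ferritin calls were lost with the median scaling (adjusted p = 0.118 and 0.182), without scaling (0.0831 and 0.125) and without Keap1 null array 1 (0.0573 and 0.106), Keap1 null array 2 (0.0833 and 0.0964) or WT array 2 (0.0522 and 0.0794), and that of Ftl1 also without WT array 1 (0.0602) and without a filter on dim probes (0.0628). Cpox, an enzyme of heme synthesis, fell 2.44-fold. Pentose phosphate and NADPH enzymes gave 4 rises (0 to 2) and 1 fall (0 or 1) among 14. Pgd was 1.65-fold and Idh1 1.60-fold higher, but the call of Pgd was lost with the median scaling (adjusted p = 0.0571) and without any 1 of the 4 arrays (0.071, 0.075, 0.053 and 0.064) and that of Idh1 without either Keap1 null array (0.0588 and 0.0592). G6pdx, which feeds the pathway, differed by 0.22 ± 0.10 SE (adjusted p = 0.15).

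Genes of the ATF4 response, the programme by which amino acid shortage and protein stress raise amino acid supply, fell together. Of 27 tested, 18 fell and 2 rose (1 to 3), with a median of -0.86 (-0.86 on slide 1 and -0.83 on slide 2), against falls in 13.2% of all targets. Atf4 itself, picked after its values were seen, measured 2.58 and 2.74 in Keap1 null and 3.42 and 3.57 in WT cells, 1.78-fold lower (adjusted p = 0.0019). Trib3, a pseudokinase, measured 1.30 and 1.31 against 3.00 and 3.05 (3.30-fold lower), and Cth, which makes cysteine, 0.08 and 0.13 against 1.68 and 1.74 (3.04-fold lower). Fgf21, a hormone of metabolic stress, was not well above background in Keap1 null cells and was at least 2.29-fold lower, and the hormone Gdf15 was 2.51-fold lower. Slc7a5, an amino acid importer also picked afterwards, fell 2.40-fold.

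Serine synthesis and folate enzymes, several of them ATF4 targets, fell in 10 of 17 with no rise, and their median was -0.34. Psph, the last enzyme of serine synthesis, measured 2.82 and 2.78 against 4.17 and 4.15, 2.56-fold lower (adjusted p = 0.000109). The mitochondrial folate enzyme Mthfd2 measured 1.62 and 1.75 against 2.54 and 2.63 (1.86-fold lower). Amino acid transporters as a whole were split, 9 higher (4 with the normexp background correction) and 6 lower of 33. The glutamate importer Slc1a3 was at least 11.3-fold higher, Slc6a15 5.06-fold and Slc38a4 2.50-fold.

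The falling ATF4 and serine genes were searched for the C/EBP-ATF element TGATGNAA, on either strand and in the same 250 bases. It was found in 7 of 24 promoters (29.2%), against 3.91% of 27025 genes. The matches of 4 falling genes are shown in capitals, since these genes moved together:
Chac1, chr2:119351034-119351071, plus strand: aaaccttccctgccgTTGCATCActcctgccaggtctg
Fgf21, chr7:45615607-45615644, minus strand: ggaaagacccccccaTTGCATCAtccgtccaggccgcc
Atf3, chr1:191183421-191183458, minus strand: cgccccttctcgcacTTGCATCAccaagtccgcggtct
Herpud1, chr8:94386302-94386339, plus strand: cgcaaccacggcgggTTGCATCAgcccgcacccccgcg
All 4 carry the same 8 letters, which are the reverse complement of the element. Atf3 fell 2.22-fold, and Herpud1 2.02-fold, a call lost without Keap1 null array 1 (adjusted p = 0.0585). ATF4 targets were drawn into the list for their known regulation, so such letters are more frequent in them by choice of the list.

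Housekeeping complexes were read beside the 27.0% of all targets called. Of 80 respiratory chain subunits 5 rose (0, and 11 with the block) and 4 fell (2 or 3, and 8 with the block), of 47 proteasome subunits 1 rose and 4 fell (1 to 3, and 8 with the block), and of 76 cytosolic ribosomal proteins 1 rose and 7 fell (1 to 4, and 16 with the block). Which direction held the majority in these 3 families turned with the scaling. Ndufs7, a subunit of complex I, fell 1.91-fold, and Rps4l rose 2.80-fold. Cholesterol and fatty acid synthesis fell in 5 of 33 (fewer with an array left out, and 9 with the block) with no rise (1 with the block). Fatty acid oxidation counted 5 rises (2 or 3, and 8 with the block) and 2 falls (0 or 1) of 27, and which direction held the majority turned with the scaling. The carnitine palmitoyltransferase Cpt1c rose 2.09-fold. Glycolysis and hypoxia genes were mixed, with 5 higher (3 or 4) and 6 lower (3 to 5, and 10 with the block) of 34, and their majority turned with the scaling. The glucose transporter Slc2a3 rose 6.86-fold and the vasodilator peptide Adm 3.44-fold, and Ndrg1 fell 2.54-fold.

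Heat shock and DNAJ chaperones fell in 18 of 77 (6 to 9, and 26 with the block) and rose in 7 (3 to 5). Dnajc22 fell 3.81-fold, Hspa12b rose 3.87-fold and Dnajb3 was at least 3.85-fold higher. Chaperones of the endoplasmic reticulum fell in 3 of 20 (fewer with an array left out, and 6 with the block) with no rise (1 with the block and 1 with the normexp correction). Lysosomal cathepsins rose in 4 and fell in 2 (1 with the normexp correction) of 12. Ctsk, the collagen-cleaving cathepsin K, rose 6.79-fold.

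Cell cycle and DNA replication genes fell in 8 of 40 (2 to 6, and 14 with the block) and rose in 2 (1 or 2). The 25% of them called in all was near the 27.0% of all targets. Cdk6 fell 1.76-fold and Cdk4, the partner kinase at the same step, rose 1.62-fold. The proliferation marker Mki67 differed by -0.35 ± 0.10 SE (adjusted p = 0.0509). Of 30 p53 targets and CDK inhibitors, 7 rose and 5 fell (0 or 1). Perp, a junction protein induced by p53, rose 5.53-fold, the death receptor Fas 3.52-fold and Cdkn2b, an inhibitor of CDK4 and CDK6, 1.95-fold. In the BCL2 family 2 rose (1 or 2, and 5 with the block) and 4 fell (2 or 3) of 17. Bcl2l15 fell 3.27-fold and the death activator Bcl2l11 rose 1.86-fold.

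Immediate early factors were split, 4 higher and 5 lower of 22, with Fos rising 2.20-fold and Fosb falling 1.94-fold. RAS-ERK feedback genes were split as well, 4 higher (7 with the block) and 7 lower (3 or 4) of 25. Dusp6, the phosphatase that ERK induces against itself, measured 5.57 and 5.60 against 4.43 on both WT arrays (2.22-fold higher), Etv1 rose 2.79-fold and Dusp8 fell 2.89-fold. For both lists the majority of calls turned with the scaling.

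Interferon-stimulated genes fell in 15 of 30 tested and rose in 3 (1 or 2), with a median of -0.68 (-0.69 and -0.70 on the slides). These genes carry the antiviral response to interferon. Oasl1, of the 2',5'-oligoadenylate synthetase family, measured -1.30 and -1.45 in Keap1 null and 1.31 and 1.13 in WT cells, 6.03-fold lower (-2.59 ± 0.14 SE, adjusted p = 9.57e-05). Ifi27 measured -0.92 and -0.83 against 1.76 and 1.66 (6.00-fold lower) and the chemokine Cxcl10 1.16 and 1.24 against 3.13 and 3.49 (4.30-fold lower). Oas1a, one of several near-identical copies that its probe may not separate, fell 10.1-fold, with 1 Keap1 null array well above background. Gbp2, picked after its value was seen, went the other way and rose by 1.26 ± 0.19 SE.

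MHC class I presentation, which interferon also raises, fell in 7 of 14 tested with no rise, and its median was -0.47. H2-K1, a classical class I heavy chain, measured 3.51 and 3.52 against 4.798 and 4.787, 2.43-fold lower (adjusted p = 0.000203). H2-Q4 was 2.36-fold and H2-T23 1.98-fold lower, though heavy chain genes are alike enough to share signal. Tap2, a subunit of the peptide transporter, was 2.12-fold lower.

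The interferon element, GAAA and GAAA spaced by 2 bases, was searched on either strand of the same windows and found in 8 of 17 promoters (47.1%) of falling interferon and class I genes, against 3.46% of 27025 genes. These lists too were drawn for their known regulation, and both this search and that for the C/EBP-ATF element were chosen after the values were seen. The matches of 3 genes whose values are given above are shown in capitals:
Cxcl10, chr5:92349078-92349117, minus strand: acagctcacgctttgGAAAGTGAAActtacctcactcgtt
Oas1a, chr5:120907526-120907560, minus strand: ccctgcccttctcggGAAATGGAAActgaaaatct
H2-T23, chr17:36032801-36032840, minus strand: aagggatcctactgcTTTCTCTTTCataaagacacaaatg
The element lies on the gene's strand in Cxcl10 and Oas1a and on the other strand in H2-T23, and Oas1a holds a second, overlapping match.

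Imprinted growth genes, which are expressed from 1 parental copy and are abundant in the fetus, rose in 12 of 24 and fell in 1, with a median of 0.84. Dlk1, a Notch-like ligand of fetal tissue, measured 2.33 and 2.32 in Keap1 null and -3.25 and -3.54 in WT cells (5.72 ± 0.18 SE, adjusted p = 1.71e-05). Its neighbour Meg3, a maternally expressed long RNA, measured 1.39 and 1.19 against -3.61 and -3.71, though its 5 probes ranged from 1.99 to 4.96 in difference. Rian, from the same domain, rose 43.8-fold, with 1 WT array well above background, and Nnat measured 1.27 and 1.21 against -4.23 and -4.39. Igf2, the fetal growth factor, was at least 8.07-fold higher. Mest and Ndn, from other domains and picked after their values were seen, rose 29.3-fold and 7.25-fold, and Peg3, picked likewise, was the one that fell (2.80-fold).

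IGF genes counted 4 rises and no fall (2 with the block) among 13 tested. The 30.8% called in all was near the 30.1% of all targets with a symbol. Igfbp5 was at least 15.1-fold higher, Igfbp7 2.73-fold and Igfbp4 2.66-fold. Of 11 EGF receptor genes 3 rose and 2 fell (1 or 2). The receptor Egfr measured 0.90 and 0.84 against -1.47 and -1.41 (4.95-fold higher) and its ligands Btc and Ereg rose 7.51-fold and 6.29-fold (Ereg, with 1 WT array well above background), while the ligand Nrg1 fell 2.12-fold. FGF genes were split, 3 higher and 4 lower (2 to 4) of 17, with Fgf13 14.6-fold higher and Fgfbp1 6.74-fold lower.

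Stromal surface genes separated the lines. Of 20 PDGF and stromal genes 9 rose and 6 fell (3 or 4). Thy1, a surface marker of fibroblast subsets, measured 1.65 and 1.59 in Keap1 null and -1.42 and -1.49 in WT cells, 8.42-fold higher (3.07 ± 0.09 SE, adjusted p = 1.15e-05). The PDGF receptors Pdgfra and Pdgfrb rose 7.56-fold and 4.98-fold and the adhesion receptor Vcam1 4.22-fold. Endoglin (Eng), a TGF-beta co-receptor, fell 3.16-fold.

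TGF-beta, BMP and activin genes rose in 23 of 57 (15 to 20) and fell in 5 (3 to 5, and 8 with the block). The ligand Bmp6 rose 8.56-fold, the latent TGF-beta binder Ltbp2 7.85-fold and Lefty1 6.16-fold. WNT genes rose in 17 of 48 and fell in 9 (3 to 5). The antagonist Sfrp2 was at least 15.7-fold higher, the WNT amplifiers Rspo1 and Rspo2 rose 8.90-fold and at least 6.20-fold, and Dkk3 rose 8.62-fold. Hedgehog and Notch genes rose in 9 of 29 and fell in 1 (0 or 1, and 4 with the block), with Gli2, a transcription factor of the Hedgehog pathway, 5.52-fold higher and the Notch ligand Jag1 3.1-fold higher. Guidance genes rose in 19 and fell in 11 of 54, led by Slit3 (8.63-fold higher) and Sema6d (6.71-fold higher).

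Secreted immune signals went both ways. Of 25 chemokine genes 8 rose (5 with the normexp correction) and 6 fell. Ccl2, which draws monocytes, measured 4.76 and 4.75 against 2.84 and 2.86 (3.74-fold higher), opposite to Ccl4. Interleukins and receptors rose in 15 and fell in 8 (5 with the normexp correction) of 47. The oncostatin receptor Osmr rose 4.19-fold, and Il34, a ligand of the macrophage growth factor receptor, measured -1.11 and -1.15 against 1.31 and 1.01 (4.88-fold lower). TNF family genes rose in 4 (2 or 3) and fell in 8 (5 or 6, and 12 with the block) of 33, and which direction held the majority turned with the scaling. Tnfrsf9 fell 2.28-fold. Complement genes rose in 4 (2 or 3) and fell in 3 (1 or 2) of 17, and which direction held the majority turned with the scaling. The shield proteins Cd55 and Cd59a rose 6.49-fold and 3.64-fold.

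Prostaglandin genes rose in 10 of 18 and fell in 2 (0 or 1), with a median of 0.49. The receptor gene Ptgfr measured -1.44 and -1.45 against -3.64 and -3.67 (4.63-fold higher), and the prostacyclin synthase Ptgis rose 5.79-fold, with 1 WT array well above background. Alox5ap, a gene of leukotriene synthesis kept in this list, rose 2.25-fold. For the prostacyclin receptor Ptgir the brighter of its probes gave at least 21.7-fold and the other a difference of 0.11, so its rise is uncertain.

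Hox genes, whose order along each cluster matches body position, differed by cluster. In the D cluster 5 of 6 tested genes rose and none fell, with a median of 5.01 (3.60 with genes at their bound). Hoxd13 measured 0.59 and 0.86 in Keap1 null and -8.72 and -7.61 in WT cells, and Hoxd10 -2.07 and -2.19 against -7.51 and -6.54. Their bounds were 167-fold and 20.4-fold, and for Hoxd8 10.6-fold. Hoxd11 was at least 10.5-fold higher. Only Hoxd9 among the 5 was well above background on a WT array (1 of 2). All 5 thus passed the filter on dim probes through the Keap1 null arrays alone, and the filter favours rises here. With signal required on all 4 dish arrays 0 rose, and 3 other genes of the cluster on the array were not tested.

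In the A cluster 6 of 11 rose and 2 fell (1 or 2), with a median of 1.13 (0.55 with genes at their bound). Hoxa11 rose 6.00-fold, Hoxa10 5.79-fold, Hoxa7 4.70-fold and Hoxa5 3.1-fold, while Hoxa2, from the anterior end and picked after its value was seen, fell 2.45-fold. The B cluster went the other way, 5 lower (3 or 4) and 1 higher of 9. Hoxb7 measured 1.30 and 1.41 against 2.94 and 2.98 (3.04-fold lower) and Hoxb2 fell 2.46-fold. In the C cluster 2 rose (1) and 2 fell (0 with the normexp correction) of 6. Hoxc8 rose 5.14-fold, and Hoxc12 was at least 2.67-fold lower, a call lost with the normexp background correction (adjusted p = 0.0631).

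**Figure D3:**
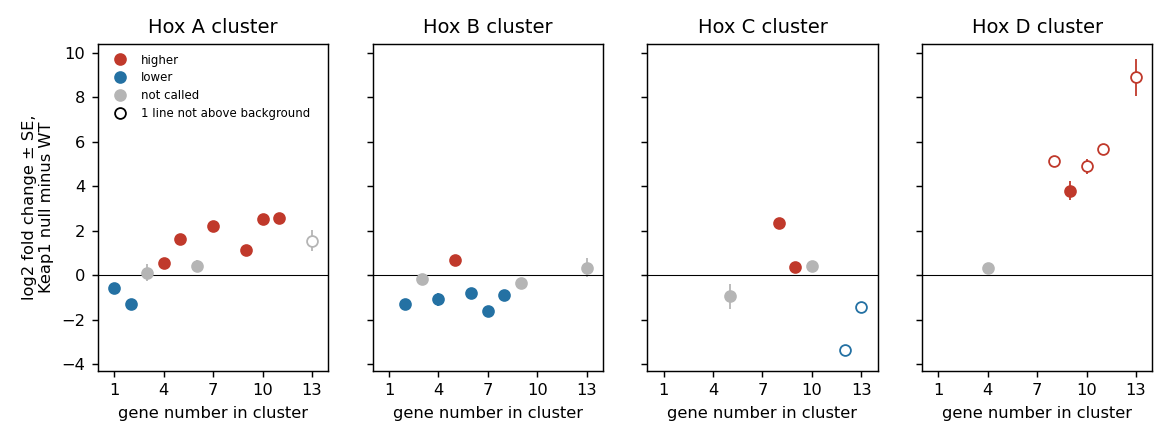
Log2 difference of Keap1 null minus WT with its SE for each tested Hox gene of the 4 clusters, against the gene's number within its cluster; red is called higher, blue lower, grey not called, and open circles mark genes well above background in 1 line alone. Genes 8 to 13 of the D cluster lie between 3.80 and 8.89, and genes 5 to 11 of the A cluster above 0, while most B cluster genes lie below 0.

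Other factors of position and lineage differed as strongly in single genes. Of 24 T-box, GATA and heart factors 8 rose and 5 fell (2 to 4). Tbx5, a forelimb and heart factor, was at least 24.0-fold higher, Isl1 at least 4.5-fold and Eomes 4.51-fold, against the fall of Tbx20. Pitx1, a hindlimb factor among 50 other homeobox genes tested (11 higher and 7 lower, with 7 to 9 and 3 or 4 when an array was left out), was at least 19.9-fold higher, Gsc 9.19-fold and Shox2 3.99-fold. Of 14 PAX and EYA genes and their relatives 5 rose and 3 fell (1 or 2). Pax3, a factor of muscle and neural crest precursors, measured -1.68 on both Keap1 null arrays and -5.22 and -5.18 on the WT arrays (11.5-fold higher), Pax1 rose 5.53-fold and Pax9 fell 2.90-fold. Of 14 SOX genes 1 rose (2 with the normexp correction) and 2 fell (1 or 2): Sox7 rose 6.77-fold and Sox13 fell 7.48-fold. Forkhead genes rose in 2 and fell in 5 (2 to 4) of 28, and which direction held the majority turned with the scaling. Called in all were 25% of forkhead and 21.4% of SOX genes, no more than the 27.0% of all targets. Foxa2, a factor of endoderm, measured 0.21 and 0.10 against -3.17 and -3.25 (10.3-fold higher).

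Matrix gene families are given next, beside the background of 13.9% higher and 13.2% lower. Matricellular and elastic fibre genes rose in 14 of 29 and fell in 5. Mfap2, a microfibril protein, measured 2.33 on both Keap1 null arrays and -3.29 and -3.14 on the WT arrays, Fbn2 rose 33.9-fold, with 1 WT array well above background, Sparcl1 4.39-fold and tenascin C (Tnc) 3.49-fold. Small proteoglycans rose in 6 of 13 (3 with the normexp correction) and fell in 1 (2 with the block), with a median of 0.72. Decorin (Dcn), which binds collagen fibrils, measured 2.76 and 2.71 against -0.70 and -0.75, 11-fold higher (adjusted p = 9.69e-06), and biglycan (Bgn) rose 5.07-fold. Collagens were mixed, 9 higher and 6 lower of 32: Col3a1 measured 3.04 and 2.94 against 0.09 and 0.13 (7.36-fold higher), Col11a1 rose 3.77-fold, and Col1a1 and Col5a2 fell 2.51-fold and 2.44-fold.

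Matrix proteases and their inhibitors rose in 13 of 38 and fell in 6 (3 to 6). Mmp3, stromelysin 1, measured 4.22 and 4.24 in Keap1 null and -1.35 and -1.32 in WT cells. Adamts8 rose 9.69-fold, Mmp9 at least 4.69-fold, and Adamts1 fell 5.03-fold. Integrins rose in 7 (4 or 5, and 3 with the normexp correction) and fell in 5 (1 or 2) of 19, and which direction held the majority turned with the scaling. Itgb3 rose 4.38-fold and Itga2 at least 3.63-fold. Of 8 laminins tested 1 rose, Lama5 (2.33-fold), and 2 fell (0 or 1). Serpins rose in 5 (3 or 4) and fell in 4 (0 or 1) of 21, with Serpinf1, an inhibitor of vessel growth, 14.3-fold higher and the protease inhibitor Serpine2 5.05-fold higher.

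Junction genes moved in opposite directions by family. Cadherins and protocadherins rose in 19 of 49 (10 with the normexp correction) and fell in 2 (0 or 1, and 4 with the block), with a median of 0.47 (0.28 with genes at their bound). Cdh6 measured -1.98 and -1.91 against -5.71 and -5.53 (12.8-fold higher). Dchs1, a large cadherin, was 8.42-fold higher by the brighter of its 2 probes and -0.07 different by the other. Claudins and tight junction genes fell in 10 of 20 and rose in 2, with a median of -0.41. Cldn3 measured -3.79 and -3.85 against 0.29 and -0.01 and Cldn1 fell 4.04-fold, with 1 Keap1 null array well above background, whereas occludin (Ocln) was at least 3.67-fold higher. Keratins rose in 1 and fell in 3 of 19: Krt76 rose 7.41-fold and Krt20 fell 3.89-fold. The 21% of keratins called was below the 27.0% of all targets.

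Contractile genes mostly were not called, with 2 higher (1 with the normexp correction and 4 with the block) and 4 lower (1 to 4) of 26, and the majority turned with the scaling. The 23.1% of contractile genes called was near the 27.0% of all targets. Myl9, the light chain of smooth muscle myosin, measured -0.01 and -0.10 against -3.03 and -2.93 (7.59-fold higher). Of Mylk, the kinase of that chain, the brighter probe was 1.70-fold lower and the other 1.31 higher on the log2 scale, so it has no settled direction. Ion channel genes rose in 18 (8 with the normexp correction) and fell in 4 of 59, with 87 others not above background, and Kcna6 rose 11.1-fold, with 1 WT array well above background. S100 and annexin genes were even, 5 higher and 5 lower (3 with the normexp correction) of 23: Anxa8 rose 13.8-fold, S100b 3.91-fold and Anxa6 3.06-fold, against the fall of Anxa10.

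**Figure D4:**
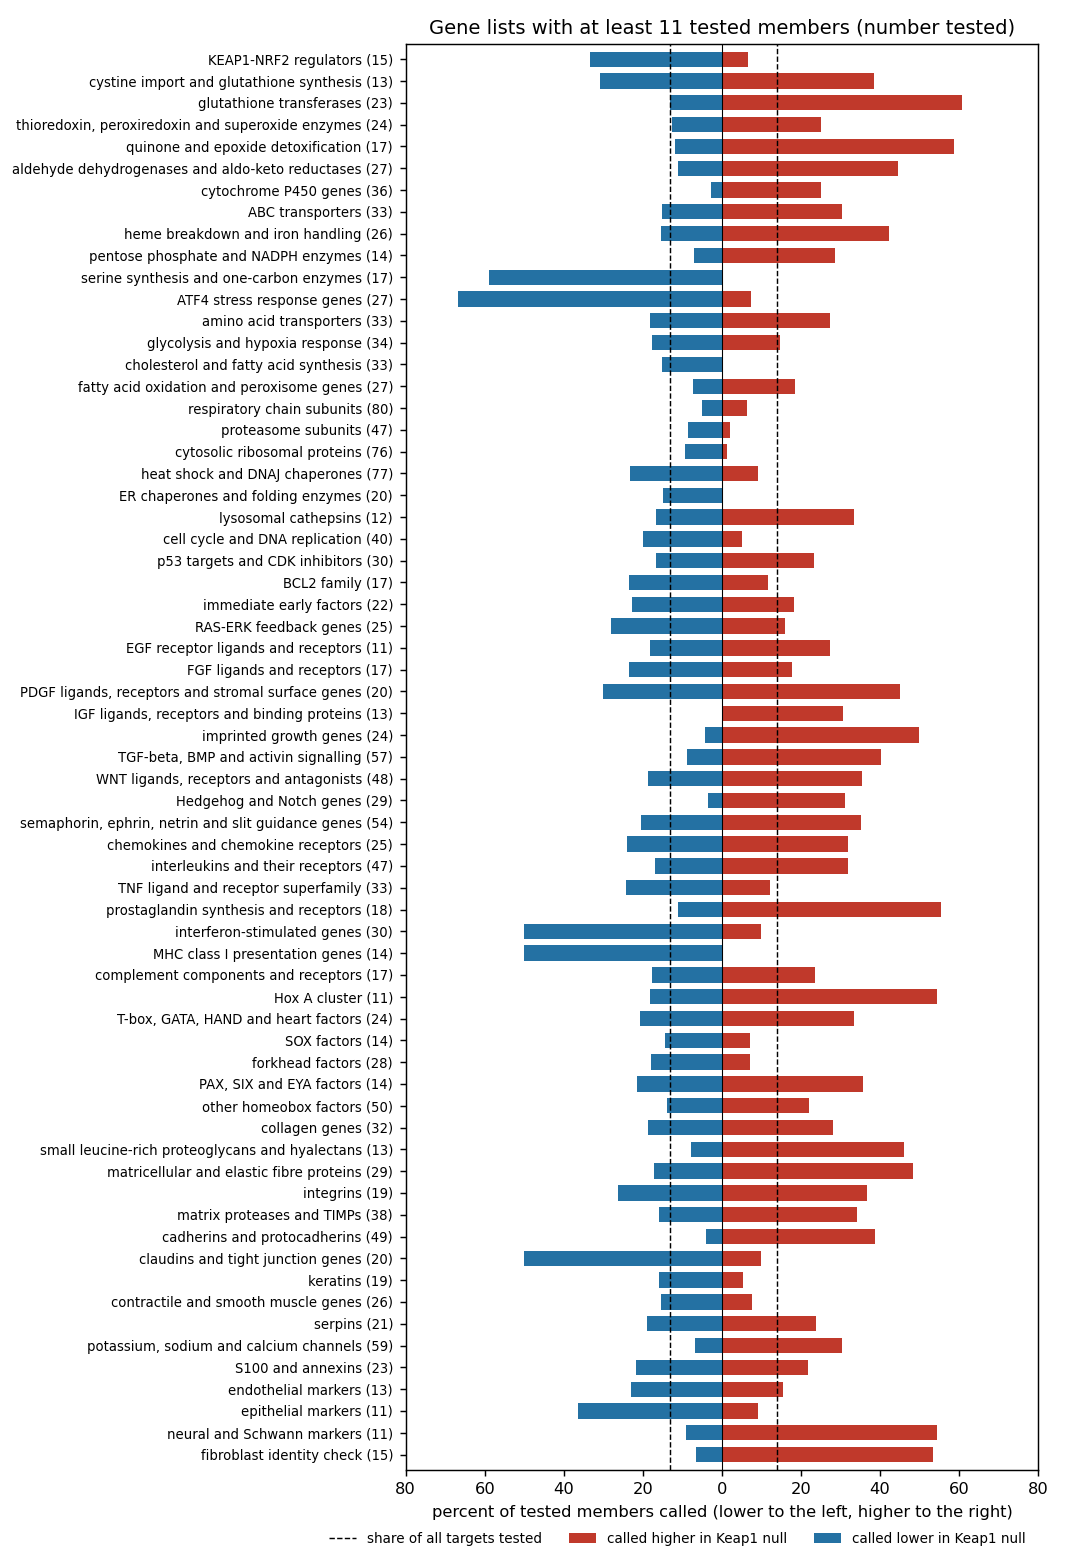
For each gene list with at least 11 tested members (number in brackets), the percent of tested members called higher in Keap1 null cells (red, right) and lower (blue, left); dashed lines mark the shares of all 19374 targets, 13.9% higher and 13.2% lower. Glutathione transferases, quinone enzymes, prostaglandin, Hox A and imprinted genes are among those that extend far to the right, and ATF4, serine, interferon, class I and claudin genes to the left.

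Markers of other cell types were read for the purity of the cultures. Of macrophage and monocyte markers 7 of 23 on the array were tested, and Ptprc, Adgre1, Itgam, C1qa, Lyz2 and Spi1 were among the 16 not well above background. The tested ones had a median level of -4.64 to -4.11 on the 4 arrays, and 2 rose (1 with the normexp correction) and 1 fell (0 or 1). Ly6c2, which fibroblasts also express, rose 2.67-fold, Mrc1 rose as well and Cd14 fell. The call of Mrc1 was lost with the normexp correction and that of Cd14 without scaling, among other settings. Of lymphocyte markers 7 of 19 were tested, with Cd3d, Cd8a, Ms4a1 and Ncr1 not above background, and 1 rose and 2 fell (1 with the normexp correction), among them Klrd1 (7.27-fold lower). Of 14 neutrophil and red cell markers 5 were tested and 1 fell (0 with the normexp correction). Endothelial markers were tested in 13 of 20, with Pecam1, Tek and Tie1 not above background, and 2 rose (0 to 2) and 3 fell (1 or 2). The 13 tested had a median level of -4.60 to -4.28 on the 4 arrays. Vwf was among those that rose, and Eng, Cldn5 and Egfl7 fell. The calls of Vwf, Cldn5 and Egfl7 were lost with the normexp correction, among other settings.

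Epithelial markers, with 6 not called and Epcam the only one called higher, were tested in 11 of 15. Of these 1 rose (0 or 1) and 4 fell, with a median of -0.42, and Cldn3 and Esrp2, a splicing factor of epithelia, fell 15.6-fold and 2.14-fold. Skeletal muscle markers were tested in 6 of 15 and none was called by limma (0 had an unadjusted p below 0.05), while with the block 1 rose and 1 fell. Adipocyte markers were tested in 6 of 12 with 2 rises (fewer with an array left out), led by the lipase Lpl (3.25-fold higher). Neural and Schwann markers gave 6 rises and 1 fall (3 with the block) of 11 tested and median levels of -2.51 to -2.33 in Keap1 null against -4.26 to -3.86 in WT cells. Stmn2 was at least 9.23-fold, Syt1 at least 5.10-fold and the growth cone gene Gap43 3.70-fold higher. In bulk RNA fewer cells of a type and less RNA per cell cannot be told apart, and the part of other cells in the gene lists was not tested.

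The calls were unevenly spread over the genome. Of 417 tested genes that the RefSeq table places on chromosome 16, 219 (52.5%) were called lower and 34 (8.15%) higher in Keap1 null cells, against 15% lower and 15.1% higher of all 13587 genes with a symbol (30.1% called in all). Their median difference was -0.42, against -0.06 over all these genes, and it was -0.43 on each slide. On chromosome 16, 346 of 417 genes lay below 0. The shift ran along the whole chromosome: cut into 4 blocks of gene order, the medians were -0.44, -0.48, -0.40 and -0.39. In all 16 alternative settings the chromosome's median relative to that of all genes lay between -0.43 and -0.33, while the count of lower calls ranged from 53 without scaling and 86 without Keap1 null array 2 to 263 with the slide as a block.

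Other chromosomes departed less. Chromosome 13 leaned upward, with 138 of 501 genes higher and 26 lower (median 0.18), as did chromosome 9 (181 higher and 49 lower of 786, median 0.11) and chromosome 1 (142 and 49 of 751, median 0.09). The X chromosome, with 79 higher and 129 lower of 451 (median -0.22), and chromosomes 12 and 5 (medians -0.21 and -0.17) leaned downward. In the tumour arrays, which are other RNA of the same lines, the Keap1 null minus WT median of chromosome 16 genes was -0.14, against -0.01 over all genes. The gene lists hold 55 genes of chromosome 16, of which 32 fell. They include Gsk3b, Txnrd2, Cpox, Cldn1, Col8a1, Adamts1, Adamts5 and Rtp4 among those that fell, and Cbr3, Robo1 and Gap43 among those that rose, and how much of each value goes with its chromosome was not tested.

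**Figure D5:**
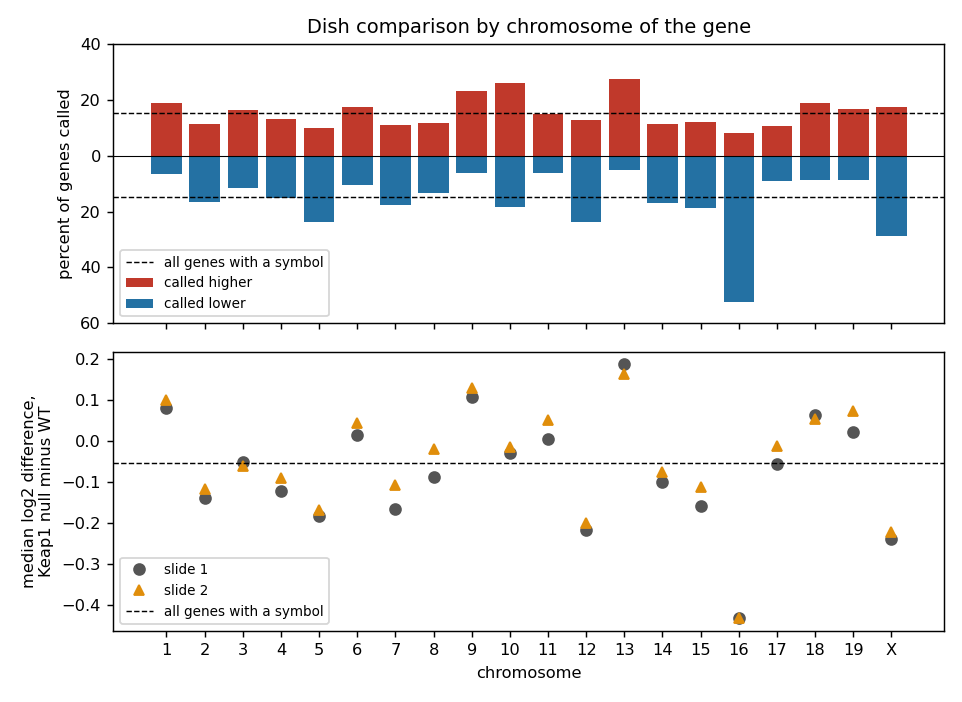
Upper panel, percent of tested genes with a symbol called higher (red, upward) and lower (blue, downward) in Keap1 null cells by chromosome, with dashed lines at the shares of all 13587 genes; lower panel, median log2 difference of the genes of each chromosome on slide 1 (circles) and slide 2 (triangles), with the median of all genes dashed. Chromosome 16 stands below the rest with 52.5% lower and a median of -0.43 on each slide, and chromosome 13 is highest.

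For 10 NRF2 genes the difference between dishes was set against that between tumours by the interaction term of the same fit, a test passed by 35.3% of all targets. Per the labels the Keap1 null tumours grew from 3000000 injected cells and the WT tumours from 10000000, so in tumours genotype and cell number cannot be told apart. Nqo1 was 12.2-fold higher in dishes and 55.1-fold higher in tumours, and Slc7a11 16.2-fold and 278-fold. Gclc and Gclm, at 2.05-fold and 1.96-fold in dishes, were 9.92-fold and 9.04-fold higher in tumours. Mgst1 went the other way, 214-fold in dishes and 3.80-fold in tumours. Its WT level was -6.23 and -6.33 in dishes, near background, and 1.17 and 1.21 in tumours, which also hold host cells. Hmox1 and Gsta4 gave no called interaction (-0.30 ± 0.16 SE and 0.20 ± 0.17 SE, adjusted p = 0.213 and 0.4).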

How the data were processed

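Per the file headers, spot intensities come from Feature Extraction 10.7.3.1 (Agilent), with background and a spatial trend subtracted and no scaling between arrays. The value table that the authors deposited holds the same intensities, rounded: the largest departure from the scanner value was 0.496%. The array design carries accessions only, so 26690 of 41174 probes were named through the RefSeq gene table of GRCm38.p6 (18217 symbols), used for names, chromosomes and gene order, and 14484 probes stayed unnamed.

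With R 4.3.3, outlier spots were left out, spots of a probe averaged, and log2 of the processed signal was taken minus the array's 75th percentile. Tested were 26176 probes above background on both arrays of 1 or both dish groups, 1 probe per gene (the brightest over the dish arrays), giving 19374 targets, 13587 of them with a symbol. Of 5220 targets with several tested probes, 18 had probes called in opposite directions. limma 3.58.1 fitted 4 group means over all 8 arrays (4 residual and 2.01 prior degrees of freedom). The limma step alone was also run on simulated arrays with independent noise, which lack any deviation shared by a slide. The number of arrays limits the precision.

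Replicate 1 of every group lay on slide 1 and replicate 2 on slide 2, per the file headers. Same-numbered dish arrays deviated together (correlation 0.606, and 0.341 to 0.613 over all pairs of groups), so the replicate number was also fitted as a block. The planned normexp correction used the median rather than the mean signal, since the files hold only the former.

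Genes named follow a rule: Keap1 and Nfe2l2, the 12 largest rises and falls above background on all dish arrays, the 8 largest bounds each way, up to 4 called members of each of 78 gene lists with the largest change, and the 10 genes of the interaction. Others, among them genes given as not called, were picked after their values were seen. The members, lists and rule were chosen with earlier results of these data known. Motifs were searched in RefSeq promoters. An exact permutation of 2 arrays against 2 cannot reach 0.05, so none was run. Some genes that the rule names are not reported here.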

Additional observations from a re-analysis of the deposited data

Results flagged for a closer look

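For 8 of the NRF2 genes compared above, the Keap1 null minus WT difference in dishes departed from that in tumours. The test was the interaction term of the limma fit (adjusted over all 19374 targets). Of all targets 35.3% passed it, so a pass does not by itself mark these genes as unusual. Hmox1 and Gsta4, the rest of the genes compared, did not pass. The dish difference minus the tumour difference, in log2 units, was 5.82 for Mgst1 (adjusted p = 2.88e-05), -4.10 for Slc7a11 (8.55e-05), -2.27 for Gclc (0.000333), -2.20 for Gclm (0.000168), -2.18 for Nqo1 (0.000142) and -1.45 for Txnrd1 (0.000911). It was 0.83 for Keap1 (0.0401) and -0.54 for Nfe2l2 (0.0277). The WT level of Mgst1 in dishes lay near background, so the size of its difference is less certain. Tumours hold host cells and dishes do not, and the part of host RNA in these values was not tested.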

How the results depend on the processing

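Against 5237 called targets, 2800 were called without scaling (705 of them lower) and 3072 with the normexp correction (1561 higher and 1511 lower), and without a filter on dim probes 1520 were lower. Leaving out 1 dish array gave 2620 to 3601 calls, 1605 to 2080 higher and 986 to 1521 lower. The replicate block, which is also the slide, gave 7159 calls (3440 higher and 3719 lower), of which 5235 were calls without it. Of 301 called genes that the naming rule gave, 76 lost or turned their call under at least 1 of 16 alternatives, and 1 turned: Mylk was 0.28 with the mean of its probes (adjusted p = 0.32), which differ in sign. The cause of the other changes was not tested. With 2 arrays per group, differences near the typical SE of 0.13 cannot be resolved, and genes near background have only bounds.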

Other observations

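In the order of the 13587 tested genes with a symbol, 24 runs of at least 3 neighbours all rose by a fitted 2-fold or more and 3 runs all fell as much. Outside the Hox, Gsta and Dlk1-Meg3 clusters the longest runs were on the X chromosome, where Fnd3c2 (20.3-fold), Fndc3c1, Lpar4 (15.5-fold), P2ry10b and Itm2a (49.0-fold) rose, and next to each other Gprasp2 (12.6-fold), Bhlhb9 (3.18-fold), Arxes1, Bex2 (19-fold) and Bex4 (27.6-fold). Fndc3c1, P2ry10b and Arxes1 were below background on both WT arrays, with rises of at least 173-fold, 4.30-fold and 5.75-fold, and Itm2a and Gprasp2 on 1 WT array. Bex2, a small adaptor of neural and endocrine cells, measured 1.56 and 1.73 in Keap1 null and -2.67 and -2.54 in WT cells. Ly6i, Ly6a, Ly6c1 and Ly6c2, surface proteins of 1 gene cluster whose probes may share signal, rose by 1.03 to 1.42 in log2 units. Neighbouring copies of a gene family are counted in these runs, and no test of the runs was made.

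With genes below background in 1 line set at their bound, 19 of the X chromosome's 451 tested genes (4.21%) were called 8-fold or more higher, against 125 of 13136 (0.952%) on the other chromosomes. The shares were not tested against each other, and the chromosome's median was -0.22. Klhl13, Dgkk and Maob on X were at least 24.6-fold, 15.4-fold and 3.67-fold higher, while Xist measured 2.61 and 2.44 in Keap1 null and 2.46 and 2.60 in WT cells.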
